A study of Mus musculus with 4 samples.

Results

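Translational efficiency was compared between heart and tibialis anterior (TA), a fast-twitch hindlimb muscle, for 5701 of the 9906 genes listed in both tissues, out of 11237 listed in either. A gene was taken if its coding sequence had at least 10 RPM of RNA (RPM, reads per about 1000000 coding reads of the library) in both tissues. Its efficiency in a tissue was the log2 ratio of ribosome-protected fragments (RPF) to RNA over the coding sequence, with 0.1 RPM added to each, minus the median of that tissue's genes with at least 1 RPM of RNA. The efficiency difference is heart minus TA on the log2 scale, so that 1 is a 2-fold higher efficiency in heart. The choice used RNA levels only, not the efficiencies.

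The study profiled ribosomes in the muscles of male C57BL/6J mice aged 10 weeks, from The Jackson Laboratory, with no treatment or genotype contrast. The 4 libraries were heart RPF, heart RNA, TA RPF and TA RNA. Tissue was lysed in cycloheximide, the RNA library came from a portion of the crude lysate, and RNase I treatment of the remainder, pelleted with no clearing spin, gave the footprints. How many animals gave each lysate is not stated in the labels. Each tissue therefore had 1 library of each kind, no replicate check of any difference was possible, and a difference of 2-fold or more was taken as a fixed size, not as a test.

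Ribosome profiling sequences the short mRNA fragments that a translating ribosome shields from nuclease. The ratio of these fragments to RNA estimates how many ribosomes an mRNA carries for its abundance, which depends on how often translation starts and on how fast ribosomes move and finish. In mammals the mRNAs of ribosomal proteins and elongation factors begin with a tract of pyrimidines (the TOP motif), through which mTOR signalling and La-related protein 1 set their translation together.

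In units of 1000000 coding reads, the RPF libraries held 28.12 in heart and 28.54 in TA, and the RNA libraries 9.29 and 16.05, as recovered from the step size of the low values. The RPF steps of about 0.035 RPM are close to the 2 decimals of the tables, so RPF reads and the intervals from them are approximate. A member had no fewer than 24 RPF reads in heart and 22 in TA. Intervals given in square brackets are 95% intervals for counting error only. Their half-width had a median of 0.25 and reached 0.84 on the log2 scale. Listed cardiomyocyte markers summed to 76317 RPM of RNA in heart and 10.6 RPM in TA, where Myh6 and Nppa were not listed. Markers of fast skeletal fibres summed to 178260 RPM in TA and 182 RPM in heart, where Myh4 was not listed. In bulk tissue, fewer cells of a type and less RNA per cell cannot be told apart.

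The efficiencies of the members in heart and TA were closely ordered, with a Pearson r of 0.91 and a Spearman rho of 0.90 across 5701 genes, which are not independent replicates. The efficiency difference had a median of 0.04, and 4636 members (81.3%) lay within 1.5-fold. Efficiency was at least 2-fold higher in heart for 191 members (3.35%) and at least 2-fold lower for 61 (1.07%), 252 in either direction (4.42%). No half-width exceeded 0.84, so the counting interval of any member past 2-fold excludes 0 by construction. The interval lay wholly beyond 2-fold for 87 of the higher and 26 of the lower. Only 9 members were 4-fold or more higher and 6 were 4-fold or more lower. The split rests on the centring. The centres were -0.44 in heart and -0.26 in TA, and without them 111 members were at least 2-fold higher and 144 at least 2-fold lower.

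**Figure D1:**
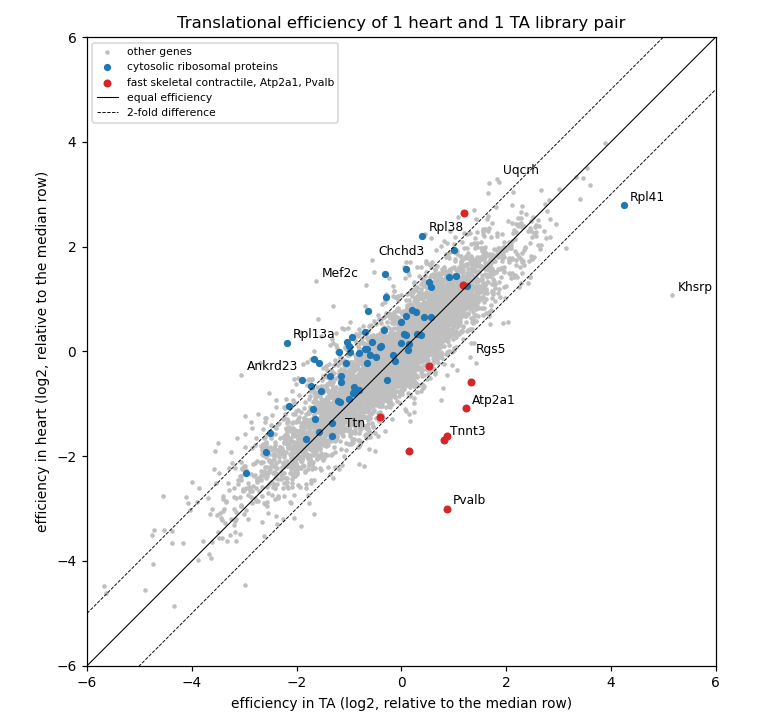
Translational efficiency of each member in TA (x axis) and heart (y axis), in log2 units relative to the median gene of the tissue. Each point is 1 of 5701 genes and the dashed lines mark a 2-fold difference, beyond which 191 members lie above and 61 below.

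RNA levels differed far more often than efficiency. Coding RNA was at least 2-fold higher in heart for 1453 members (25.5%) and at least 2-fold lower for 215 (3.77%), and RPF was at least 2-fold higher for 1306 (22.9%) and lower for 295 (5.17%). Unlike efficiency, these ratios were not centred, and their medians of 0.55 for RNA and 0.47 for RPF add to the shares higher in heart. Relative to the median RNA ratio, 81.7% of members lay within 2-fold, against 95.6% under 2-fold in efficiency. Among the 191 members with higher efficiency in heart, the median log2 ratio of RPF, heart over TA, was 1.31 and that of RNA was 0.21, against 0.47 and 0.55 over all members. RNA lay within 2-fold of the median RNA ratio for 150 of these 191 (78.5%, against 81.7% of all members) and was at least 2-fold below it for 37, and RPF was at least 2-fold above the median RPF ratio for 74. Among the 61 with lower efficiency, the median log2 RPF ratio was -0.62 and the median log2 RNA ratio was 0.95. RNA lay within 2-fold of the median RNA ratio for 31 of the 61 (50.8%) and was at least 2-fold above it for 17, and RPF was at least 2-fold below the median RPF ratio for 31. Both sets were picked on RPF over RNA, so an excess of high or low RPF and RNA is built into them. For the counts at least 2-fold from a median ratio no share of all members is given, so they only describe these sets.

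The highest difference was that of Mef2c, a MADS-box transcription factor of cardiac and skeletal muscle. Mef2c had 80.6 RPM of RPF and 43.2 RPM of RNA in heart, and 57.9 RPM of RPF and 215 RPM of RNA in TA. RPF was therefore higher in heart although RNA was lower there. Its efficiency was 7.83-fold higher in heart (log2 difference 2.97, [2.79, 3.14]), at 1.34 above the median in heart and -1.63 in TA. RNA over the untranslated regions of Mef2c was also higher in TA, at 881 RPM in the 3′UTR and 79.7 RPM in the 5′UTR against 140 and 5.99 RPM in heart, and the difference taken against 3′UTR RNA was 3.13. The related factors Mef2a and Mef2d had differences of -0.07 and -0.37. Of 14 muscle transcription factors among the members, the other one past 2-fold was Esrrg, a nuclear receptor of oxidative metabolism, at 1.08.

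Ankrd23, a muscle ankyrin repeat protein that binds titin, came second. Ankrd23 had 95.6 RPM of RPF and 177 RPM of RNA in heart against 146 and 1458 RPM in TA, so its RNA was far lower in heart and its RPF less so. The difference was 2.62 [2.52, 2.72], and 2.35 against 3′UTR RNA. Titin itself (Ttn), the giant spring of the sarcomere, had 22405 RPM of RPF and 88159 RPM of RNA in heart against 52199 and 143698 RPM in TA. Its efficiency difference was small, at -0.34, and it lay below the median in both tissues. The Ttn model is a composite of Ensembl 64 exons, not a RefSeq transcript. Of the 24 members that code for giant proteins, 1 was at least 2-fold higher (4.17%, against 3.35% of all members). Another 2 were at least 2-fold lower (8.33%, against 1.07%), and the median was -0.25. The higher one was Xirp2, an actin-binding Xin repeat protein, at 1.26, and the lower ones were the thin-filament ruler Neb at -1.33 and the actin crosslinker Flna at -1.32.

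Other genes among the 15 highest belonged to organelles and signalling. Chchd3, a subunit of the MICOS complex that shapes mitochondrial cristae, had 841 RPM of RPF and 339 RPM of RNA in heart against 133 and 235 RPM in TA. Its difference was 2.31 [2.23, 2.40], and 2.33 against 3′UTR RNA. Mapkapk5, a stress-activated protein kinase, had 40.6 RPM of RPF and 64.4 RPM of RNA in heart against 9.02 and 70.7 RPM in TA, a difference of 2.47. RNA of Mapkapk5 was thus nearly level while RPF was not. Trappc6b, part of a vesicle tethering complex, had 24.3 and 25.5 RPM in heart against 4.30 and 20.1 RPM in TA, a difference of 2.31. Next came 6330578E17Rik, a cytochrome c oxidase assembly factor, at 2.20, Fam118b at 2.17, and 2400001E08Rik, the LAMTOR1 subunit that tethers mTORC1 signalling to lysosomes, at 2.04. Hint3 at 1.95, the bicarbonate transporter Slc4a4 at 1.81, the endoplasmic reticulum protein Tmem41b at 1.79 and the kinase Map3k10 at 1.78 followed. Map3k10 rested on few reads, with 1.49 RPM of RPF in heart and 0.80 RPM in TA, and its interval ran from 1.00 to 2.57.

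**Figure D2:**
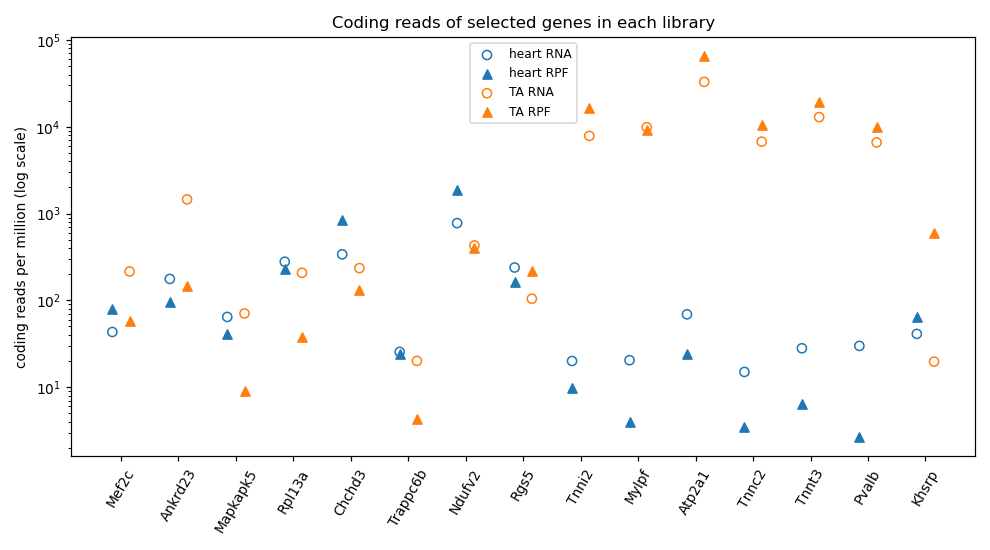
Coding reads in RPM (y axis, log scale) of RPF (filled triangles) and RNA (open circles) for selected genes in heart (blue) and TA (orange), 1 library each. For Mapkapk5, Rpl13a and Chchd3 the RNA circles are close while the RPF triangles are apart, and for the fast-fibre genes both heart values lie far below those of TA.

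The genes of cytosolic ribosomal proteins, the protein parts of the translating ribosome, held more members at least 2-fold higher than any other of the 54 gene lists, by count. By share, genes known for upstream reading frames came higher, with 4 of 17 (23.5%). Of 73 ribosomal protein genes listed, 71 were members. Efficiency was at least 2-fold higher in heart for 16 (22.5%, against 3.35% of all members) and at least 2-fold lower for 1, and 62 of the 71 lay above 0 (53.5% of all members did). Their median difference was 0.57, from a median efficiency of -0.66 in TA to 0.03 in heart. The median of the other 5630 members was 0.03. Leaving out Rpl3l, Rpl7l1 and Rps27l, which are relatives of ribosomal proteins, 16 of 68 were higher and the median was again 0.57. The small subunit gave 7 of 29 at least 2-fold higher with a median of 0.63, and the large subunit 9 of 42 with a median of 0.57. RNA of the group was at least 2-fold higher in heart for 2 of the 71 (25.5% of all members) and RPF for 28 (22.9% of all members). Many ribosomal proteins have near-identical processed copies in the genome, and the handling of multiply mapping reads is unknown here, so values of single genes are uncertain.

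The start regions of the ribosomal protein genes are shown because their mRNAs are known for the pyrimidine tract. A run of at least 8 C or T letters was searched on the coding strand from 30 bases before to 50 bases after the RefSeq gene start (GRCm38.p6). A start was matched through the transcript's accession for 53 of the 71, using the longest run where a gene has several starts, and 40 of these (75.5%) held such a run, against 30.4% of 4565 other members and 32.3% of all 27025 genes with a start. The runs are in capitals in 30 bases that hold each, printed 5′ to 3′ on the coding strand. In Rps24 and Rpl41 the run ends where the searched bases end and may go on past them. First come the 5 genes with the highest difference that hold a run.
Rpl13a (chr7:45128722-45128751, minus strand): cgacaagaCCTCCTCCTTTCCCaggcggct
Rpl38 (chr11:114668568-114668597, plus strand): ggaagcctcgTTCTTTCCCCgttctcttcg
Rpl11 (chr4:136053357-136053386, minus strand): cggaagTCTCCCTCTCTCTTCCTgttctcc
Rps21 (chr2:180257399-180257428, plus strand): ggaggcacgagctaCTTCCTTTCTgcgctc
Rpl10a (chr17:28328572-28328601, plus strand): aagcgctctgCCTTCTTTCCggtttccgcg
The next are the 4 with the lowest difference that hold a run.
Rpl37 (chr15:5116632-5116661, plus strand): gcgggggtgCTTTCTCTTCCggtctctttg
Rps25 (chr9:44407684-44407713, plus strand): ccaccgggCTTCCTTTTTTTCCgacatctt
Rps24 (chr14:24490698-24490727, plus strand): ttggtcggcagtgagcggTCCTCTTTTCCT
Rpl41 (chr10:128549119-128549148, minus strand): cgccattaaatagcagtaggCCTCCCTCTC
These genes were chosen for holding a run, so its presence in them is no result. A TOP motif lies at the very 5′ end of the mRNA, and most of these runs do not begin at the RefSeq start: in bases from it, negative before it, they begin at 2 in Rpl13a and -2 in Rpl38, but at 13 in Rpl11, 34 in Rps21, 17 in Rpl10a, 28 in Rpl37, -22 in Rps25, 38 in Rps24 and 40 in Rpl41. Among ribosomal protein genes the median difference was 0.57 in the 40 with a run (6 at least 2-fold higher) and 0.77 in the 13 without (4 higher). Among the other members it was 0.02 with and 0.04 without a run.

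Rpl13a, a large subunit protein, had 230 RPM of RPF and 279 RPM of RNA in heart against 38.2 and 208 RPM in TA. Its difference of 2.34 [2.23, 2.46] was the highest of the group. Rpl38, a small large-subunit protein, had 327 and 95.8 RPM in heart against 78.2 and 70.9 RPM in TA, a difference of 1.81. For both genes the RPF values stood far apart and the RNA values were close. Rpl22 had 192 and 93.2 RPM in heart against 43.7 and 65.3 RPM in TA, a difference of 1.80. Rpl11, Rps21 and Rpl10a, whose starts are printed above, had differences of 1.47, 1.34 and 1.22, while Rpl37, Rps25 and Rps24 were at -0.06, -0.27 and -0.29. Rpl41, the shortest ribosomal protein with a coding sequence of 72 nucleotides, went the other way, with 162 RPM of RPF and 31.6 RPM of RNA in heart against 260 and 16.3 RPM in TA. The Rpl41 difference was -1.45 [-1.70, -1.21].

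**Figure D3:**
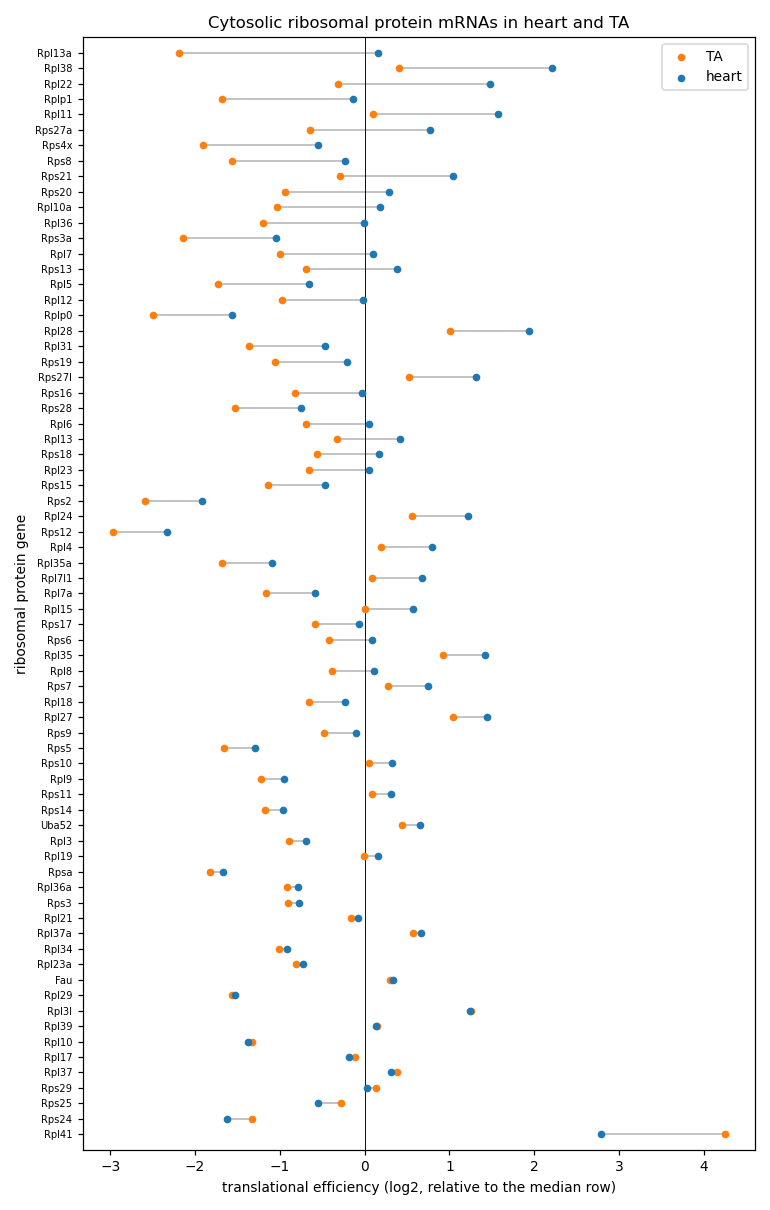
Translational efficiency (x axis, log2 relative to the median gene of the tissue) of 71 ribosomal protein genes (y axis, ordered by difference) in heart (blue) and TA (orange). In 62 of the 71 the heart point lies to the right of the TA point, and Rpl41 at the bottom is 2-fold or more the other way.

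A check against 3′UTR RNA covered a minority of the group. Only 22 of the ribosomal protein members had at least 10 RPM of 3′UTR RNA in both tissues. In these 22 the median difference was 0.17 against 3′UTR RNA and 0.24 against coding RNA, so the genes measurable this way were those with smaller differences. Without centring the median of the 71 was 0.39.

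Other parts of the translation machinery had medians nearer to 0. Over all members, 3.35% were at least 2-fold higher and 1.07% at least 2-fold lower. Elongation factors and other known TOP mRNAs had a median of 0.21, with 2 of 21 at least 2-fold higher and 1 lower. Eef1a1, the main elongation factor, was at -0.21, and Eif3e, an initiation factor subunit, at 1.11. The lower one, Pabpc1, the poly(A)-binding protein, lay at the 2-fold limit. Of 46 initiation factors 2 (4.35%) were at least 2-fold higher, near the share of all members, and none lower, with a median of 0.19. Without centring neither list had a member at least 2-fold higher. Mitochondrial ribosomal proteins had a median of 0.11, with 4 of 64 higher, such as Mrpl12 at 1.40, and 1 lower, Mrpl33 at -1.32. Aminoacyl-tRNA synthetases had a median of 0.03, with 1 of 32 higher.

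The 5 complexes of oxidative phosphorylation had 75 members, of which 6 were at least 2-fold higher in heart (8%, against 3.35% of all members). Complex I, which takes electrons from NADH, held 34 of the 75 and 5 of the 6. Its 34 members had a median of 0.33, with 5 higher (14.7%), none lower and 23 above 0. Ndufv2, a subunit of the NADH-oxidising module, had 1862 RPM of RPF and 776 RPM of RNA in heart against 400 and 429 RPM in TA. The Ndufv2 difference was 1.54 [1.49, 1.60], and Ndufc1, Ndufv3, Ndufb10 and Ndufb9 were at 1.36, 1.31, 1.05 and 1.03. Without centring 3 members of complex I were at least 2-fold higher and 1 lower. At the other end, Ndufb3 was at -0.90. Ndufa4, grouped here by its name although now assigned to complex IV, was at -0.79. The sixth was Uqcrh, the hinge protein of complex III, with 3332 and 461 RPM in heart against 597 and 203 RPM in TA, a difference of 1.47. Complexes II and IV and ATP synthase had no member past 2-fold, with medians of -0.05, 0.25 and 0.21.

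Fuel pathways differed in RNA, and their efficiency differences were near those of all members, of which 4.42% passed 2-fold. The 27 genes of fatty acid uptake and oxidation had a median log2 RNA ratio of 2.34, with RNA at least 2-fold higher in heart for 25 (25.5% of all members), while their efficiency difference had a median of -0.02 and none passed 2-fold. The 27 genes of glycolysis and glycogen had a median log2 RNA ratio of -1.32, with RNA at least 2-fold lower in heart for 17 (3.77% of all members), and a median efficiency difference of 0.03 with none past 2-fold. The tricarboxylic acid cycle had a median of -0.05, and its 1 member past 2-fold was Pdk1, the kinase that inhibits pyruvate dehydrogenase, at 1.22. Proteasome subunits (33) and heat shock proteins and chaperones (32) had none past 2-fold and medians of 0.01 and -0.03. For fatty acid and glycolytic genes the median log2 RPF ratios were 2.14 and -1.24, close to those of RNA.

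**Figure D4:**
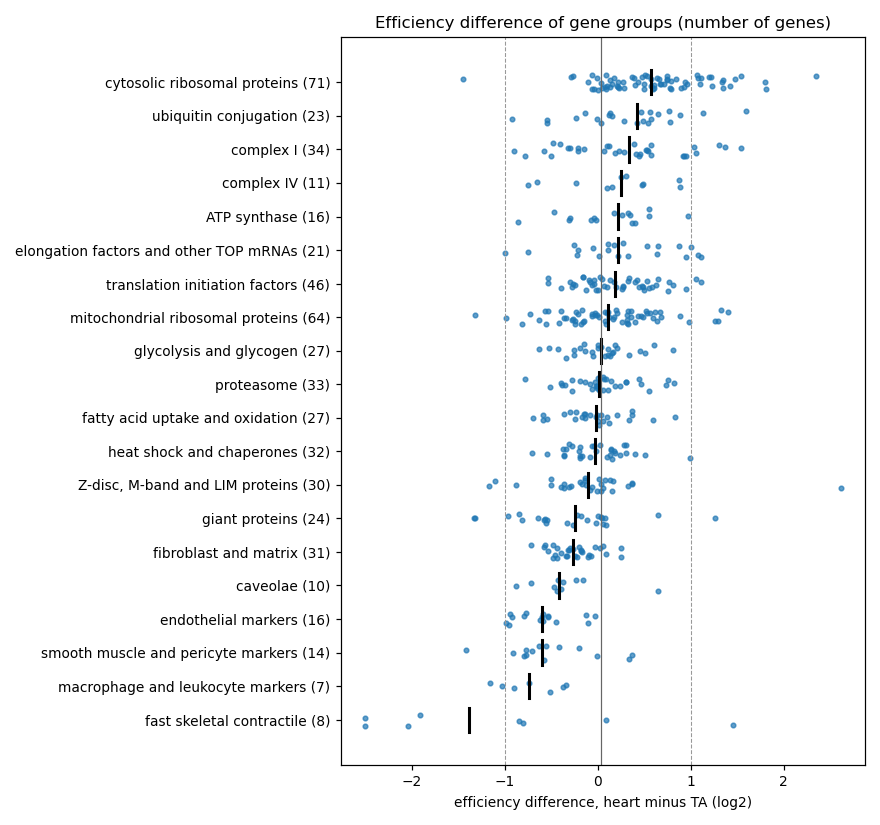
Efficiency difference, heart minus TA, on the log2 scale (x axis) for members of gene groups (y axis, with their number). Points are genes, black bars are group medians, the grey line is the median of all members and dashed lines mark 2-fold. Ribosomal proteins have a median of 0.57 and endothelial markers a median of -0.60, while the median over all members is 0.04.

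Several smaller groups contained single genes with higher efficiency in heart. Ube2d3, a ubiquitin-conjugating enzyme, had 504 RPM of RPF and 152 RPM of RNA in heart against 138 and 111 RPM in TA, a difference of 1.60. The 23 ubiquitin-conjugating enzymes had a median of 0.42, with Ube2d3 and Ube2j1 past 2-fold, but with a minimum of 30 RPM of RNA their median was 0.09. Gpx1, a glutathione peroxidase and selenoprotein, had 366 and 53.3 RPM in heart against 59.4 and 22.2 RPM in TA, a difference of 1.54. Of 17 iron genes 3 (17.6%, against 3.35% of all members) were at least 2-fold higher and none lower. Their median was -0.01. Fth1, the ferritin heavy chain, whose mRNA carries an iron-responsive element in its 5′UTR, had 919 and 525 RPM in heart against 264 and 352 RPM in TA, a difference of 1.40 [1.33, 1.47]. Slc40a1, the iron exporter ferroportin, was at 1.28, the iron-sulfur cluster factor Bola3 at 1.53, and the ferritin light chain Ftl1 at 0.58.

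Genes known for regulatory upstream reading frames were split. Of 17 such members 4 (23.5%, against 3.35% of all members) were at least 2-fold higher and none lower, 8 lay above 0, and the median was -0.04. Without centring 1 of the 17 was at least 2-fold higher. Atf4, the transcription factor of the integrated stress response, had 41.8 RPM of RPF and 72.2 RPM of RNA in heart against 44.3 and 141 RPM in TA, a difference of 1.06. RPF of Atf4 was close in the tissues while RNA was lower in heart. Asnsd1, Ibtk and Ptp4a2 were at 1.26, 1.04 and 1.01. Genes of polyamine synthesis, another group whose translation is known to be controlled, had a median of -0.65 over 6 members, with none past 2-fold. Amd2, an S-adenosylmethionine decarboxylase with a near-identical copy, was at -0.92, Odc1, ornithine decarboxylase, at -0.73, and the antizyme Oaz2 at 0.78.

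The lowest difference was that of Khsrp, an RNA-binding protein that promotes decay of AU-rich mRNAs. Khsrp had 63.9 RPM of RPF and 41.1 RPM of RNA in heart, and 591 RPM of RPF and 19.7 RPM of RNA in TA. Its efficiency was 17.0-fold lower in heart (log2 difference -4.08, [-4.31, -3.86]), at 1.08 in heart and 5.16 in TA. The TA footprints of Khsrp therefore stood out, not the RNA. It was the only one of 37 RNA-binding and splicing genes past 2-fold, and their median was -0.06.

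Next came genes of fast skeletal fibres. Pvalb, a calcium buffer, had 2.66 RPM of RPF and 29.9 RPM of RNA in heart against 10044 and 6607 RPM in TA, a difference of -3.87 [-4.23, -3.50]. Tnnt3, a fast troponin T, had 6.34 and 28.0 RPM in heart against 19084 and 12940 RPM in TA, a difference of -2.51. Atp2a1, the fast-fibre calcium pump, had 23.9 and 69.0 RPM in heart against 65001 and 32953 RPM in TA, a difference of -2.33 [-2.48, -2.17]. In heart all of these genes were at trace levels and had less RPF than RNA. The fast troponins Tnnc2 and Tnni2 were at -2.50 and -1.92, and the myosin light chain Mylpf at -2.05.

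Members at such trace levels in heart were few. The heart RNA of 11 members was under 1% of TA, at 0.207% to 0.970%, and their heart RPF was 0.0265% to 0.912% of TA. Of the 11, 7 were at least 2-fold lower and the median was -1.92. Skeletal actin (Acta1), closest to 1%, had a difference of 0.09, though its reads may be shared with the cardiac copy Actc1. The calcium store protein Casq1 was at -0.58, Myl1 at -0.81 and Mybpc2 at -0.85. Outside the 11, 54 members were at least 2-fold lower. Of the list of fast contractile genes 8 of 15 were members, with a median of -1.38. Of these, 4 were at least 2-fold lower (50%, against 1.07% of all members) and 1 was higher. The higher one was Tpm1, a tropomyosin expressed in both muscles, with 48932 RPM of RPF and 10584 RPM of RNA in heart against 30641 and 16041 RPM in TA, a difference of 1.45. The part of the low fast-fibre marker RNA in heart in these differences was not tested.

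Few cardiac genes could be compared at trace levels in TA, since only Atp2a2 and Myl3 had TA RNA under 1% of heart, at 0.260% and 0.414%. The 4 cardiac and slow contractile members had no difference past 2-fold and a median of -0.26, with Myl3 at -0.16 and Actc1 at 0.20. The other 9 of 13 listed genes were not members. Of 20 calcium handling genes, 2 were at least 2-fold lower (10%, against 1.07% of all members). Atp2a2, the cardiac calcium pump, had 37407 RPM of RPF and 25167 RPM of RNA in heart against 72.6 and 65.4 RPM in TA, a difference of 0.60. The sodium-calcium exchanger Slc8a1 was at 0.63. Of 30 Z-disc, M-band and LIM genes Ankrd23 was higher, and Actn4 at -1.17 and Pdlim3 at -1.11 were lower.

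Markers of vessel, immune and connective tissue cells lay on the lower side. Over all 5701 members, 2649 were below 0 and 1.07% were at least 2-fold lower. All 16 endothelial members were below 0, with a median of -0.60, none past 2-fold, and a range from -0.99 for Robo4 to -0.03 for Rasip1. Kdr, the main VEGF receptor, had 269 RPM of RPF and 343 RPM of RNA in heart against 87.8 and 50.9 RPM in TA, a difference of -0.95. Both its values were higher in heart, RNA by more. All 7 macrophage and leukocyte members were below 0, with a median of -0.74 and 2 past 2-fold, Csf1r at -1.16 and Lyz2 at -1.03. Smooth muscle and pericyte markers had a median of -0.61 with 12 of 14 below 0, and Rgs5, a pericyte regulator of G-protein signalling, had 163 and 239 RPM in heart against 216 and 104 RPM in TA, a difference of -1.42. Fibroblast and matrix genes had a median of -0.27 with 26 of 31 below 0. Red cell and haem genes had a median of 0.03 with 5 of 10 above 0. Their most abundant member, Hbb-b1, was at -0.29, and the 2 red cell markers among the members had a median of 0.14. The nerve and adipocyte lists had 1 member each, Scn7a at 0.23 and Lipe at 0.09, too few to place those cell types.

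These markers also had more RNA in heart. The median log2 RNA ratio was 1.83 for the endothelial members, 1.84 for macrophages and leukocytes, 1.16 for smooth muscle and pericytes and 0.97 for fibroblasts, against 0.55 over all members, and the median log2 RPF ratio of the endothelial members was 1.09. Coding RNA enters both ratios, so they are not separate measurements. Among all members, the median difference was -0.07 at a log2 RNA ratio of 1 to under 2 (1191 genes). It was -0.23 at 2 to under 4 (242 genes) and 0.10 at 4 or more (20 genes). With 3′UTR RNA as denominator, 8 endothelial members had a median of -0.61, and -0.59 against coding RNA. The 10 caveolae genes, many of them abundant in vessels, had a median of -0.42 with 9 below 0. The endothelial marker list (6 genes, all listed in both tissues) summed to 1055 RPM of RNA in heart and 243 RPM in TA. Its 6-gene counterpart for macrophages and leukocytes summed to 201 and 33.7 RPM. The 6 fibroblast markers were nearly level, at 1480 RPM in heart and 1453 RPM in TA. Those of smooth muscle and pericytes, 5 of 6 listed in each tissue, summed to 601.5 and 231 RPM. The part of cell composition in these values was not tested.

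The remaining genes among the 15 lowest fell in no single group. Carns1, carnosine synthase, had 15.8 RPM of RPF and 40.8 RPM of RNA in heart against 33.0 and 23.3 RPM in TA, a difference of -1.69. The formin Fhod1 was at -1.65, Sh3rf2 at -1.49, the HDL receptor Scarb1 at -1.49, the kinase Mapk6 at -1.47 and the matrix protein Thbs2 at -1.47. Sox6, a transcription factor known to repress slow-fibre genes, had 4.14 and 26.1 RPM in heart against 60.2 and 118 RPM in TA, a difference of -1.48. Both of its values were lower in heart, RPF by more.

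Length was weakly related to the difference. Members with coding sequences under 300 nucleotides were at least 2-fold higher in heart in 11.3% of 80 cases and at least 2-fold lower in 3.75%, with a median of 0.05. Those of 2400 nucleotides or more were higher in 1.99% and lower in 1.23% of 1708. For 300 to under 600 nucleotides the median difference was 0.17 over 501 members, and 0.15 over 462 without ribosomal proteins. Spearman rho across genes was -0.10 with coding length, -0.05 with 5′UTR length and -0.05 with 3′UTR length, as a description. RPF and RNA reads were not divided by length, which cancels in the difference when both tissues use the same transcript model, as all but 2 members did.

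An RNA measurement from another part of the transcript was available for 3172 members with at least 10 RPM of 3′UTR RNA in both tissues. Of 108 higher members among them, 69 remained at least 2-fold higher with this denominator and 107 remained above 0. The exception was Tsc22d1, a leucine zipper gene with several isoforms, at 1.17 on coding RNA and -1.39 on 3′UTR RNA, which was 226 RPM in heart and 46.9 RPM in TA. Of 31 lower members, 23 remained at least 2-fold lower and all 31 stayed below 0. RPF is the same in both measures, so these counts bear on the RNA side only.

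**Figure D5:**
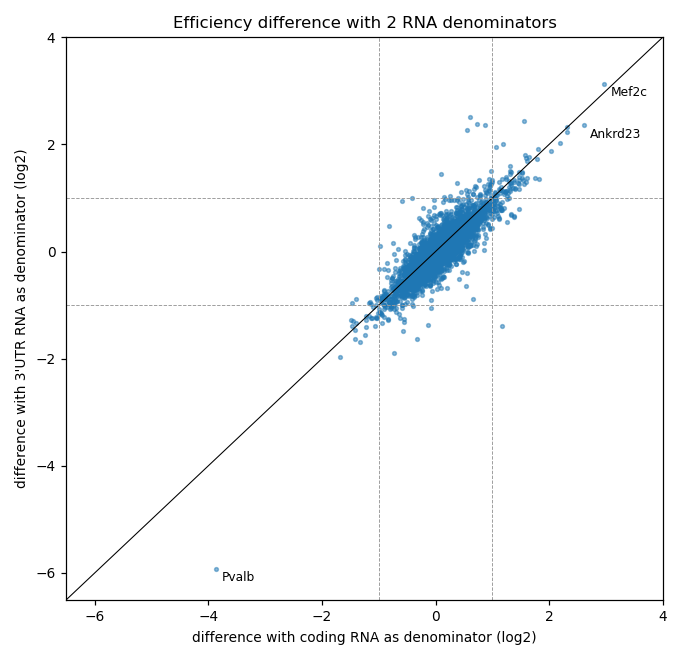
Efficiency difference with coding RNA (x axis) and with 3′UTR RNA (y axis) as denominator, log2, for 3172 members. Mef2c and Ankrd23 lie high in both, Pvalb lies low in both, and the single point at 1.17 and -1.39 is Tsc22d1.

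Members nearest the RNA minimum were as follows. Just inside it, with 10 RPM in the lower tissue, AI316807, Golph3l and Acsl5 had differences of 1.52, -0.19 and -0.01. Just outside, at 9.95 RPM, 1700052N19Rik, Trappc2 and Pla2g4e had -0.03, 0.59 and 0.64.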

How the data were processed

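RPF and RNA of heart and TA were measured in 1 library each. The authors deposited 1 table per tissue with RPM values over the 5′UTR, coding sequence and 3′UTR of 1 transcript model per gene. The models are RefSeq transcripts, but not for every gene: that of Ttn is a composite of Ensembl 64 exons. Coding values sum to 993831 to 998118 per library. UTR values come on top, such as 367735 over the 3′UTRs in heart RNA. The values are thus per about 1000000 coding reads, not per 1000000 mapped reads. Per the labels, reads were mapped to RefSeq transcripts and RNA was depleted of rRNA. The submitters' processing notes name Bowtie and mm9. The sources used here give neither the Bowtie version nor the treatment of multiply mapping reads. Values were not divided by length.

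Tables were joined on symbol, keeping the most abundant row where a symbol had several (5 in heart, 4 in TA). Reads were recovered from the step size of low values: 100% of low coding RNA values were whole reads within a rounding of 0.005 RPM. They were used for intervals only: with 1 library per group there is no residual variation among libraries, so no count test could be fitted and no p-value is given. The calculation was tested on simulated data. Sequences come from RefSeq (GRCm38.p6), not the authors' build, and were matched by transcript accession. Python 3.11.15, numpy 2.4.6, pandas 2.3.3 and matplotlib 3.10.9 were used.

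Members and the 54 gene lists were chosen with earlier results of these data known. Lists are described by counts and medians beside all members. Genes were named by rule: the 15 highest and 15 lowest, members 2-fold above the median in one tissue and 2-fold below it in the other, the highest, lowest and most abundant of each list, Ttn, and the 3 on each side of the RNA minimum, 165 in all. Other genes named in the text were picked after their values were seen.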

Additional observations from a re-analysis of the deposited data

Results flagged for a closer look

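Mef2c and Atp2a1 were the 2 members whose efficiency was at least 2-fold above the median of one tissue and at least 2-fold below that of the other. For Mef2c, efficiency was 1.34 in heart and -1.63 in TA, a log2 difference of 2.97. For Atp2a1, the fast-fibre calcium pump, it was -1.09 in heart and 1.24 in TA, a log2 difference of -2.33, and its heart RNA was 0.209% of that in TA. With 1 library of each kind per tissue, neither difference was tested.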

How the results depend on the processing

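Each result was recomputed under 13 alternatives, 2 of them (3′UTR RNA as denominator and the same transcript model) chosen after seeing the data. No paired analysis was possible because each tissue had 1 library of each kind. The 191 higher members became 390 with a minimum of 1 RPM, 101 with 30 RPM, 111 without centring and 110 with 3′UTR RNA, which leaves 3172 genes, of which 108 were higher on coding RNA. The 61 lower members became 225, 18 and 144 under the first 3 of these. The minimum of 1 RPM takes in more genes than the 5701 members, and the minimum of 30 RPM takes in fewer. Counts under these minimums are therefore out of different totals and do not by themselves show a change in share. The ribosomal protein median of 0.57 became 0.39 without centring. With 3′UTR RNA, which leaves 22 of the 71, it was 0.17 with 5 at least 2-fold higher in place of 16, and the same 22 had 0.24 and 3 on coding RNA, so the move comes mostly from the genes left. The count of lower fast contractile genes fell from 4 to 0 with a minimum of 30 RPM and with 3′UTR RNA, and their median of -1.38 became 0.0057 on the 3 genes left with 3′UTR RNA. Restricting to members whose coding RNA was within 4-fold between tissues left too few of that list for a value. The 4 lower fast contractile genes had under 30 RPM of heart RNA (15.0 for Tnnc2 to 28.0 for Tnnt3), so that minimum leaves them out by construction, while Neb and Atp2a1 pass it and stay at least 2-fold lower.

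Of all 252 members past 2-fold, 145 stayed past it in every alternative that gave a value and 107 did not in at least 1, among them 80 without centring and 47 of 139 with 3′UTR RNA. Tsc22d1 reversed, from 1.17 to -1.39 with 3′UTR RNA. Of the 59 genes past 2-fold that the naming rule gives, 50 stayed past it and none reversed. The other RNA minimums, the 4-fold RNA limit, the same transcript model and leaving out repeated symbols only add or drop genes. These settings cannot move the difference of a gene. Staying past 2-fold under them was therefore fixed in advance, for the 252 and the 59 alike. Another alternative, library totals without the 50 most abundant genes, multiplies each library by a constant. Centring removes that constant except through the added 0.1 RPM, so this alternative could barely move a difference, and none of the 252 was lost under it. The counting intervals of all 252 members past 2-fold exclude 0 by construction, since no half-width exceeded 0.84. The variation between animals is unknown, and isoforms and near-identical copies are not separated in the deposited tables.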
